A study of Mus musculus with 8 samples.

Results

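A set of 10 genes that store, carry or sense zinc and iron were followed across 4 conditions of mouse spermatogonial stem cell (SSC) culture. The set was chosen by name and function: the metallothioneins Mt1 and Mt2, the zinc transporters Slc30a1 and Slc39a10, the transferrin receptor Tfrc, the ferritin subunits Fth1 and Ftl1, the iron exporter Slc40a1, the iron importer Slc11a2 and the iron sensor Ireb2. All 10 members are among the 55421 genes of the deposited count table, and all 10 passed the filter on low counts that left 20477 genes for testing. Bulk mRNA was sequenced from 8 libraries, 2 per condition, described by the study as separate biological replicates.

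The cells were primary cultures of undifferentiated spermatogonia made from the testes of C57BL/6XDBA/2 F1 hybrid pups aged 6 days, kept on irradiated mouse embryonic fibroblast feeders. Veh was complete SSC medium, and RA was the same medium with retinoic acid at 100 nM. NR, nutrient restriction, was medium in which 10% was complete SSC medium and 90% was Earle's balanced salt solution (EBSS). NRRA was that diluted medium with retinoic acid at 100 nM. Every treatment lasted 2 days. The study asked whether nutrient restriction and retinoic acid act together on spermatogonia, which the interaction, the retinoic acid effect in restricted medium minus that in complete medium, addresses for each gene. Dilution with EBSS lowers at once those components of the medium that the salt solution does not itself supply, any metals and carrier proteins among them included. Neither metals nor proteins were measured here.

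Metallothioneins are small cysteine-rich proteins that bind zinc and copper. The zinc-sensing factor MTF1 binds short metal response elements (MREs) in the promoters of Mt1, Mt2 and Slc30a1, and so raises their transcription when zinc is plentiful. Iron is controlled mainly after transcription. When iron is scarce, the iron regulatory proteins bind hairpins called iron responsive elements (IREs): at the 5′ end of ferritin and Slc40a1 mRNAs they block translation, and at the 3′ end of Tfrc mRNA they slow its decay. Of the steps named here, mRNA counts can therefore show the Tfrc arm but not a block in ferritin translation.

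The sequences behind these 2 kinds of control are shown first, since some of the members are known to be regulated through such elements. An MRE was searched as TGCACNC or TGCGCNC on both strands of the RefSeq promoter windows of build GRCm38.p6, which run from 250 bases before each start to 50 after it. Matches are in capitals, and one read on the other strand appears as its reverse complement. The stretch of Mt2 before its start, chr8:94172385-94172617 on the plus strand, held 3 matches, and that of Mt1, chr8:94179056-94179088 on the plus strand, held 1. A pair of further stretches of Mt1 from GENCODE M21 (GRCm38), chr8:94179089-94179118 and chr8:94179171-94179200, held the 4 matches that lie in the 159 bases between the first and the last annotated start of Mt1.
Mt2 promoter: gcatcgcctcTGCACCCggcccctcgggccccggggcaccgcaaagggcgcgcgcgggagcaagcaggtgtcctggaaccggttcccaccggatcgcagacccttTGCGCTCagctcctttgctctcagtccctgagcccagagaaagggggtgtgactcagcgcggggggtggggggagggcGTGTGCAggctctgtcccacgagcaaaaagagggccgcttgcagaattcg
Mt1 before the RefSeq start: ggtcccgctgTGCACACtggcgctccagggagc
Mt1 first stretch: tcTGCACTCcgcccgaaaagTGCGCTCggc
Mt1 second stretch: ctGGGTGCAaacccttTGCGCCCggactcg

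Over its whole window Mt2 held 4 matches and Mt1 held 3. Among 32851 promoter windows of the same length, 25.7% held at least 1 match, 7.11% at least 2, 1.97% at least 3 and 0.517% at least 4. The Slc30a1 window held 2 matches. One of the 2 Tfrc windows also held 2, which overlap each other on opposite strands, and the other held none. The windows of Slc39a10, Fth1, Ftl1 and Ireb2 held no match, which says only that these letters are not in those windows. Slc40a1 and Slc11a2 had no window.

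An IRE was searched in the untranslated regions of GENCODE M21 transcripts as CNNNNNCAGTGN followed by 5 bases that pair with the first 5 bases after the C, allowing G-T pairs. Capitals mark the 6-base loop. The 5′ untranslated regions of Fth1 (chr19:9982732-9982760, plus strand), Ftl1 (chr7:45459779-45459807, minus strand) and Slc40a1 (chr1:45925465-45925493, minus strand) each held 1 site. The 3′ untranslated region of Tfrc held 4, at chr16:32631219-32631247, chr16:32631598-32631626, chr16:32631663-32631691 and chr16:32631710-32631738 on the plus strand.
Fth1: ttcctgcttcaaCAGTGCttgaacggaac
Ftl1: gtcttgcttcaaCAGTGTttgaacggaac
Slc40a1: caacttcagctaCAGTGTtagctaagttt
Tfrc site 1: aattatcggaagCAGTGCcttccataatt
Tfrc site 2: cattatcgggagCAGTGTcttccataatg
Tfrc site 3: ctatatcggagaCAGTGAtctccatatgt
Tfrc site 4: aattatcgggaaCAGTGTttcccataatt

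Of 22527 protein-coding genes, 0.138% held such a site in a 5′ and 0.639% in a 3′ untranslated region. The other 6 members held none, which says only that this pattern is not in the annotated regions scanned.

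Library totals ran from 19261333 to 30023585 counted reads, and levels are given as CPM, reads as a share of a library's total after TMM scaling, a correction for library composition. A level of 1 CPM stood for 19.3 to 30 reads. Germ cell markers summed to between 995 and 1307 CPM, and all 6 of them were expressed. The 10 fibroblast markers summed to much more, 18140 to 18359 CPM in Veh, 14961 to 16098 in RA, 29847 to 31136 in NR and 24171 to 24948 in NRRA. Macrophage markers summed to 220 to 304 CPM, erythroid markers to at most 0.257 CPM, and Sertoli and Leydig cell markers to at most 11.3 CPM. Variation between libraries beyond counting error was widest in Veh, with a chi-square of 3.93 per gene beside 1.58 to 2.12 in the other conditions. In bulk RNA, fewer cells of a type and less RNA per cell cannot be told apart. Of the 10 fibroblast markers, 8 were higher and 1 lower in NR, 1 was higher and 6 lower in RA, and 7 were higher and 3 lower in NRRA, each against Veh. Their sum is carried by the collagens and Fn1, and S100a4, at 0.465 to 3.22 CPM, was lower in all 3 treated conditions, as were Fn1 and Lum in NRRA. The germ cell sum moved too, from 1038 to 1042 CPM in Veh to 1298 to 1307 in NR and 1130 to 1141 in NRRA, and it was 995 to 1050 in RA. Of the 6 markers, 4 were higher and 0 lower in NR, and 3 were higher and 3 lower in RA. In NRRA 4 were higher and 2 lower. Zbtb16, which the study uses as a marker of undifferentiated spermatogonia, had means of 164 CPM (Veh), 31.8 (RA), 244 (NR) and 35.4 (NRRA). The sum thus includes markers that differ between states of germ cells. The part of these markers in the results below was not tested.

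**Figure D1:**
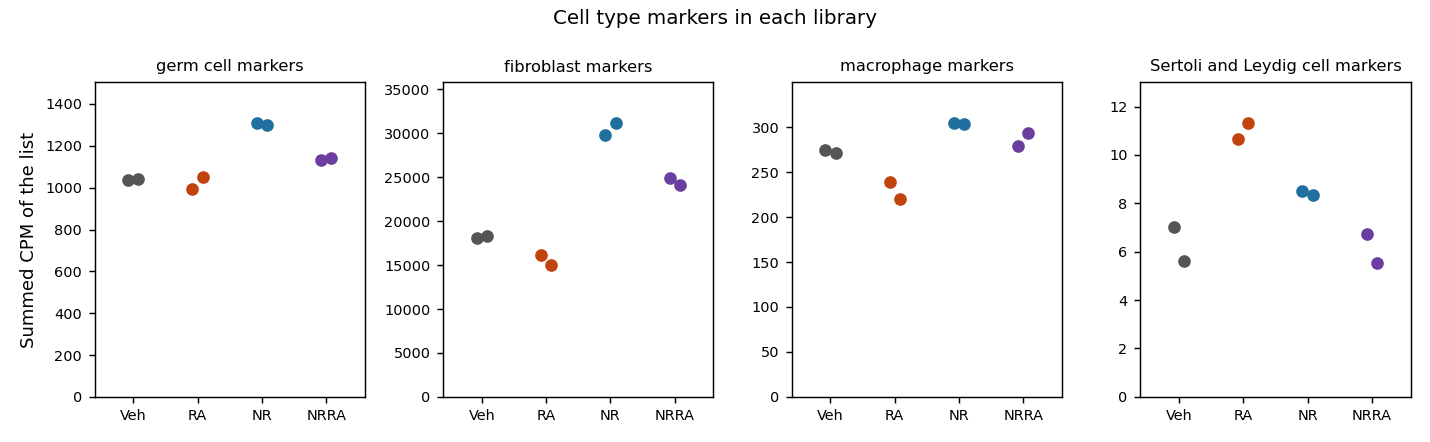
Summed CPM of each cell type marker list (vertical axis) in the 8 libraries (points), by condition (horizontal axis). The fibroblast sum reached 29847 to 31136 CPM in NR and 14961 to 16098 in RA, and the germ cell sum reached 1298 to 1307 in NR.

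Both metallothionein mRNAs fell under nutrient restriction and fell further when retinoic acid was added to it, although retinoic acid in complete medium did not lower either one. Mt1 stood at 146 and 146 CPM (Veh), 158 and 147 (RA), 88.6 and 89.8 (NR), and 60.9 and 65.5 (NRRA). Both restricted conditions lay below both complete-medium conditions with no overlap. Mt1 fell by 0.71 on the log2 scale in NR against Veh (SE 0.0515, adjusted p = 1.1e-11). In NRRA against Veh it fell by 1.21 (SE 0.0520, adjusted p = 1.09e-16), which is 2.31-fold. RA against Veh gave a log2 fold change of 0.07 with a 95% interval of -0.04 to 0.17 (adjusted p = 0.306), so the order from high to low was RA and Veh together, then NR, then NRRA.

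Mt2 stood at 170 and 178 CPM (Veh), 231 and 221 (RA), 104 and 105 (NR), and 83.1 and 82.0 (NRRA). The 4 conditions were fully separated, in the order RA, Veh, NR, NRRA. Retinoic acid raised Mt2 in complete medium by 0.38 on the log2 scale (SE 0.0450, adjusted p = 1.58e-07). Under restriction the same dose went with a log2 change of -0.34 in NRRA against NR (SE 0.0479, adjusted p = 1.78e-06). In NRRA against Veh, Mt2 fell by 1.07 (SE 0.0471, adjusted p = 1.53e-16), which is 2.10-fold, and in NRRA against RA by 1.45 (SE 0.0463, adjusted p = 2.38e-19).

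The retinoic acid effect thus differed between the media for both metallothioneins. The interaction was -0.56 for Mt1 (SE 0.0726, adjusted p = 3.18e-06) and -0.72 for Mt2 (SE 0.0657, adjusted p = 1.08e-08). For Mt2 the retinoic acid effect changed sign with the medium, and for Mt1 it went from no detected change to -0.50 in NRRA against NR (SE 0.0530, adjusted p = 1.82e-08). Mt1 and Mt2 are neighbours on chromosome 8, with 5514 bases between the end of Mt2 and the start of Mt1 (GRCm38). They were not exact copies of each other: the ratio of Mt2 to Mt1 counts was 1.16 and 1.22 (Veh) and 1.17 and 1.17 (NR), but 1.46 and 1.50 (RA) and 1.37 and 1.25 (NRRA). Both RA libraries stood above all others in this ratio.

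One annotation limit touches Mt2. Its opposite-strand neighbour Gm45774 covers 73.5% of its exon bases, and the strand setting of the authors' counting is not given in the sources used here. Gm45774 counts came to between 82.9% and 86.1% of the Mt2 counts in every library, and the reads of the pair cannot be told apart. Mt1 exons overlap no other gene and showed the same falls in NR and NRRA.

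**Figure D2:**
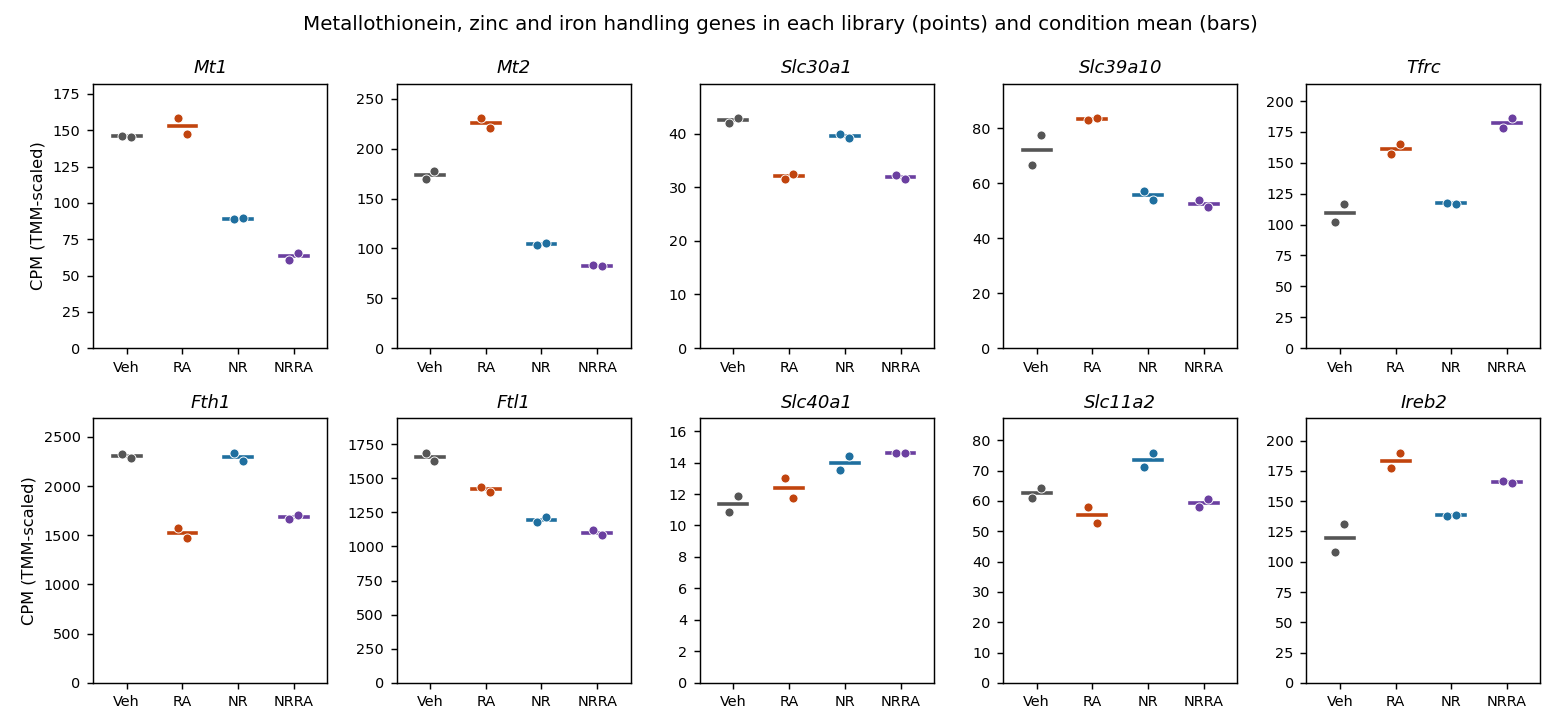
TMM-scaled CPM (vertical axes, from 0, a separate scale for each gene) of the 10 members in the 2 libraries (points) of each condition (horizontal axes), with the condition mean as a bar. Mt1 and Mt2 step down from Veh to NR to NRRA, Tfrc and Ireb2 stand higher in RA and NRRA, and Fth1 and Slc30a1 stand lower in RA and NRRA.

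Slc30a1 showed another order of the conditions than Mt1 and Mt2. It encodes ZNT1, which exports zinc across the plasma membrane. Slc30a1 stood at 42.1 and 42.9 CPM (Veh), 31.6 and 32.5 (RA), 40.0 and 39.2 (NR), and 32.3 and 31.5 (NRRA). It split by retinoic acid: the 4 libraries with retinoic acid all lay below the 4 without. The NR pair lay slightly below the Veh pair without overlap, while RA and NRRA overlapped. The opposite-strand gene 1700034H15Rik covers 8.92% of the Slc30a1 exon bases, and its counts were 14.1% to 17.4% of those of Slc30a1. The strand limit given for Mt2 applies to this overlap as well. Slc30a1 fell by 0.40 on the log2 scale in RA against Veh (SE 0.0631, adjusted p = 8.8e-06) and by 0.31 in NRRA against NR (SE 0.0607, adjusted p = 0.00013). NR against Veh gave -0.10, with an interval of -0.23 to 0.03 (adjusted p = 0.194), and NRRA against RA gave -0.01, with an interval of -0.14 to 0.12 (adjusted p = 0.921). No difference between the media was detected in its retinoic acid effect (interaction 0.09, adjusted p = 0.567).

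Slc39a10 encodes ZIP10, which imports zinc and thus works against Slc30a1. It stood at 66.6 and 77.5 CPM (Veh), 82.8 and 83.6 (RA), 57.1 and 54.0 (NR), and 53.7 and 51.2 (NRRA). The restricted libraries lay below all complete-medium libraries, and the Veh pair was the widest. Slc39a10 fell by 0.38 on the log2 scale in NR (SE 0.0640, adjusted p = 2.65e-05) and by 0.46 in NRRA (SE 0.0629, adjusted p = 6.47e-07), both against Veh. Its rise in RA of 0.21 (SE 0.0616, adjusted p = 0.0072) no longer passed the test without Veh replicate 1, where it was 0.13, without RA replicate 2, where it was 0.20, or with the trend described below removed, where it was 0.10 (adjusted p = 0.077). The interaction was -0.29 (SE 0.0884, adjusted p = 0.0279), and it did not pass in 5 of the 8 fits that left out 1 library.

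On the iron side, the uptake gene Tfrc rose and the storage gene Fth1 fell with retinoic acid in both media. With restriction alone, neither passed the test in the main fit. Tfrc encodes transferrin receptor 1, which brings iron-loaded transferrin into the cell. Tfrc stood at 102 and 117 CPM (Veh), 157 and 165 (RA), 118 and 117 (NR), and 178 and 186 (NRRA). All 4 libraries with retinoic acid lay above all 4 without it, while the Veh and NR libraries overlapped. Tfrc rose by 0.56 on the log2 scale in RA against Veh (SE 0.0541, adjusted p = 4.28e-09) and by 0.64 in NRRA against NR (SE 0.0524, adjusted p = 1.47e-10). NRRA against Veh gave 0.74 (SE 0.0534, adjusted p = 5.34e-12), a 1.67-fold rise. Nutrient restriction alone gave 0.10, with an interval of -0.01 to 0.21 (adjusted p = 0.15). That value depended on the fit. It ranged from 0.02 to 0.21 with 1 library left out at a time, and was -0.15 with the trend described below removed. No difference between the media was detected in the main fit (interaction 0.08, adjusted p = 0.572).

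Fth1, the heavy ferritin subunit, carries the ferroxidase activity that loads iron into the ferritin shell. Fth1 stood at 2325 and 2289 CPM (Veh), 1570 and 1473 (RA), 2337 and 2250 (NR), and 1664 and 1703 (NRRA). Libraries with retinoic acid were lower than those without, and Veh and NR overlapped. It fell by 0.60 on the log2 scale in RA against Veh (SE 0.0361, adjusted p = 4.36e-13) and by 0.45 in NRRA against NR (SE 0.0360, adjusted p = 9.73e-11). NR against Veh gave -0.01, with an interval of -0.08 to 0.07 (adjusted p = 0.874). Its interaction of 0.15 (SE 0.0508, adjusted p = 0.0437) was lost with DESeq2 size factors, with DESeq2 itself and without any 1 of 6 of the 8 libraries.

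Ftl1, the light ferritin subunit, stabilises the iron core. Ftl1 stood at 1686 and 1623 CPM (Veh), 1438 and 1398 (RA), 1177 and 1213 (NR), and 1118 and 1087 (NRRA). The 4 conditions did not overlap and stepped down in that order. The last step was small, -0.12 in NRRA against NR (SE 0.0356, adjusted p = 0.00945), and did not pass in every alternative run. Unlike Fth1, Ftl1 fell with restriction alone, by 0.47 on the log2 scale (SE 0.0357, adjusted p = 2.76e-11), and less with retinoic acid alone, by 0.22 (SE 0.0356, adjusted p = 1.24e-05). NRRA against Veh gave a fall of 0.59 (SE 0.0357, adjusted p = 1.48e-13). The ratio of Fth1 to Ftl1 counts was accordingly 1.38 and 1.41 (Veh), 1.09 and 1.05 (RA), 1.99 and 1.85 (NR), and 1.49 and 1.57 (NRRA). The balance of ferritin messages was therefore highest in NR and lowest in RA, with no overlap between any of the conditions.

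Per kilobase of exon, the ferritins were the most abundant members in every condition, Ftl1 at 1235 and Fth1 at 665 CPM per kilobase in the Veh mean, followed by Mt2 at 296 and Mt1 at 117. The transporters, Tfrc and Ireb2 lay between 1.26 (Slc40a1) and 17.7 (Tfrc) on the same scale. The exon lengths merge all annotated transcripts of a gene, with 1246 bases in 1 block for Mt1 and 3469 in 2 blocks for Fth1. Such lengths can exceed those of the mRNAs, and the order per kilobase depends on them. By CPM alone, Fth1 stood above Ftl1 in every condition. Ferritin genes have many processed pseudogenes. The rows of named pseudogene copies held at most 0.0188% of the summed Fth1 counts and at most 0.820% of the summed Ftl1 counts. The opposite-strand gene Gm10252 overlaps 26.5% of the Ftl1 exon bases, its counts were 63.2% to 65.7% of those of Ftl1 in every library, and the reads of the 2 genes cannot be told apart.

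**Figure D3:**
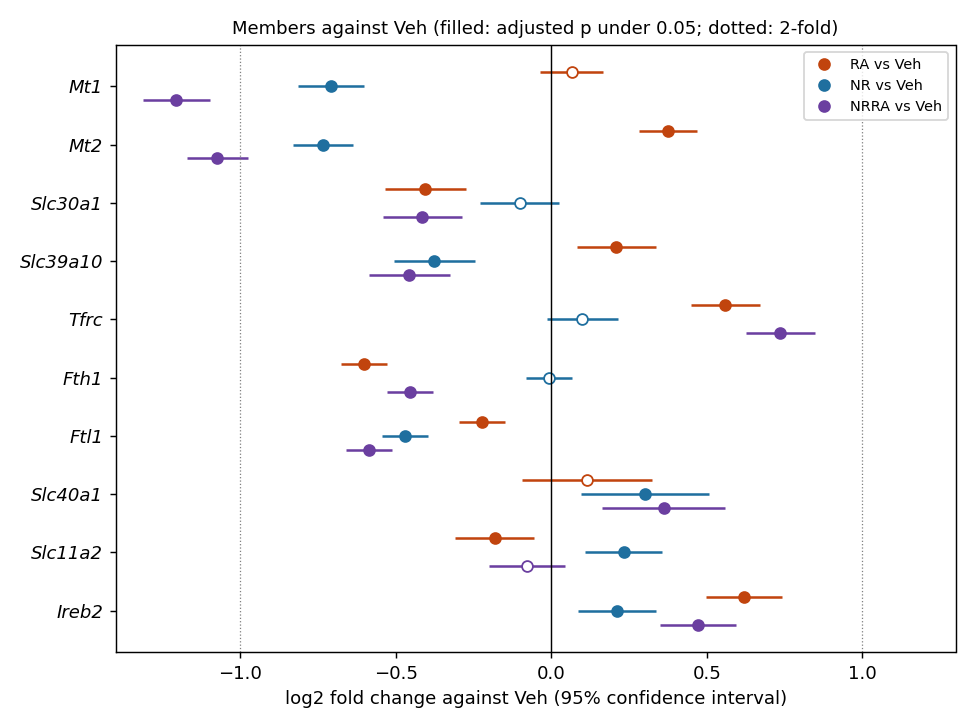
Log2 fold changes against Veh (horizontal axis) with 95% confidence intervals for RA, NR and NRRA, 1 row per member, filled where the adjusted p is under 0.05 and with dotted lines at a 2-fold change. Mt1 and Mt2 in NRRA are the points beyond 2-fold, and Slc30a1, Tfrc and Fth1 have NR intervals that include 0.

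Ireb2 encodes IRP2, an iron regulatory protein whose abundance is set largely by iron-dependent degradation of the protein. Ireb2 stood at 108 and 131 CPM (Veh), 177 and 190 (RA), 138 and 139 (NR), and 166 and 165 (NRRA). The order was RA, NRRA, NR, Veh with no overlap, and the Veh pair was the widest. The difference between the neighbours RA and NRRA was small, -0.15 in NRRA against RA (adjusted p = 0.0411), and did not pass with DESeq2 or without RA replicate 2, NRRA replicate 1 or NRRA replicate 2. With the trend described below removed it was larger, -0.27 (adjusted p = 3.83e-08). Ireb2 rose by 0.62 on the log2 scale in RA (SE 0.0600, adjusted p = 4.29e-09), by 0.47 in NRRA (SE 0.0597, adjusted p = 1.64e-07) and by 0.21 in NR (SE 0.0608, adjusted p = 0.00624), each against Veh. The interaction was -0.36 (SE 0.0837, adjusted p = 0.00414), and without RA replicate 2 it was -0.30 and not past the test.

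The Ireb2 values depended strongly on a trend that ran across all genes with GC content and exon length. When that trend was removed from each library, an alternative added after the data had been seen, Ireb2 was at -0.11 in NR against Veh (adjusted p = 0.0231), a change of direction. In NRRA against Veh it was then at 0.01 (adjusted p = 0.889), its RA rise shrank to 0.28 and its interaction to -0.17 (adjusted p = 0.0227). The NR rise was also lost without Veh replicate 1, where it was 0.10. Removing the trend reduced the Tfrc changes as well, to 0.26 in RA and 0.34 in NRRA against Veh, which stayed past the test (adjusted p = 3.39e-07 and 3.84e-10). Tfrc in NR against Veh then changed direction to -0.15 (adjusted p = 0.00162), and its interaction rose to 0.23 (adjusted p = 0.00149). The metallothionein falls in NR and NRRA remained past the test under it, with Mt1 at -0.62 and -1.08 and Mt2 at -0.64 and -0.94. With the trend removed, 3 values of other members that had missed the threshold passed it as well: Mt1 in RA against Veh at 0.15 (adjusted p = 0.00197), Slc30a1 in NR against Veh at -0.14 (adjusted p = 0.0388) and Slc39a10 in NRRA against NR at -0.14 (adjusted p = 0.0238). The ferritin falls in RA were then -0.54 for Fth1 and -0.10 for Ftl1, the latter over 2 times smaller than in the main fit.

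The pair of transporters that move iron across membranes stayed under a 2-fold change in every comparison. Slc40a1 encodes ferroportin, the known exporter of iron from cells, and it is the least abundant member. Slc40a1 stood at 10.8 and 11.9 CPM (Veh), 13.0 and 11.8 (RA), 13.5 and 14.4 (NR), and 14.6 and 14.6 (NRRA). Both restricted conditions lay above both complete-medium conditions. It rose by 0.30 on the log2 scale in NR (SE 0.0999, adjusted p = 0.0159) and by 0.36 in NRRA (SE 0.0962, adjusted p = 0.00215), both against Veh. With the GC and length trend removed these were 0.08 and 0.03, and neither passed. The NR rise was also lost with DESeq2, without Veh replicate 1 and without NR replicate 2. Macrophages express Slc40a1 strongly. The macrophage marker sum was 271 to 274 CPM in Veh, 220 to 239 in RA, 304 in both NR libraries and 279 to 294 in NRRA. Of the 6 markers, 2 were higher and 0 lower in NR, and 0 were higher and 4 lower in RA, both against Veh. In NRRA 2 were higher and 2 lower. The lower ones in RA and NRRA were fewer in some fits that left out 1 library. The part of macrophages in the Slc40a1 values was not tested.

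Slc11a2 encodes DMT1, which carries ferrous iron into the cytosol at the membrane and out of endosomes. It stood at 60.9 and 64.4 CPM (Veh), 58.1 and 52.7 (RA), 71.2 and 75.8 (NR), and 58.0 and 60.5 (NRRA). The NR pair stood above all other libraries, and NRRA overlapped RA. Slc11a2 rose by 0.23 on the log2 scale in NR against Veh (SE 0.0598, adjusted p = 0.00231) and fell by 0.31 in NRRA against NR (SE 0.0578, adjusted p = 7.85e-05). Its change in RA of -0.18 (SE 0.0614, adjusted p = 0.0182) no longer passed without Veh replicate 2 (-0.13), without RA replicate 2 (-0.11) or with the trend removed (-0.13). The interaction of -0.13 did not pass (adjusted p = 0.363).

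The members were also counted as a group. In NR against Veh, 3 members were higher and 4 lower, against 21.7% and 22.2% of all tested genes. Among the 10092 genes with a mean count at least that of Slc40a1 (320.5), 60.3% were called in either direction. In RA against Veh, 4 were higher and 4 lower, against 19.8% and 23.4% of all genes and 58.2% of the abundant ones. In NRRA against Veh, 3 were higher and 6 lower, against 30.1% and 28.7% of all genes and 73.7% of the abundant ones. With the GC and length trend removed, the members higher were 1 in NR and 1 in NRRA against Veh, and those lower in NR were 7. Without Veh replicate 1, the members higher in NR were also 1. No result about the group is read from these counts.

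In NRRA against RA, 3 members were higher and 5 lower, where the background was 20.9% and 19.4% of all genes and 54.2% of abundant ones. In NRRA against NR, 2 were higher and 6 lower (21.3% and 22.1%, and 56%). In NR against RA, 3 were higher and 6 lower (24.5% and 23.8%, and 60.9%). For the interaction, 1 member was higher and 4 were lower, where 6.37% of all tested genes were higher, 6.58% were lower and 19.4% of abundant genes were called. The higher one, Fth1, was lost in the fits named above, and the lower ones were 2 without RA replicate 2. In NRRA against RA, the members higher were 1 without NRRA replicate 2 and 1 with the trend removed. At a change of at least 2-fold, the members called were Mt1 and Mt2 in NRRA against Veh, the same pair in NRRA against RA, and Mt2 in NR against RA, all lower. With the trend removed, Mt2 in NRRA against Veh was just under 2-fold. The share of all genes called lower at 2-fold was 6.02%, 3.68% and 5.62% in these comparisons. The median absolute log2 change of the members was 0.27 in NR, 0.30 in RA and 0.46 in NRRA against Veh, beside 0.27, 0.26 and 0.38 over all genes and 0.21, 0.19 and 0.29 over the abundant ones.

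Among the 4 comparisons in which only 1 factor changed, the members were arranged as follows. Mt1, Mt2, Slc39a10 and Ftl1 were lower with restriction in both the absence and the presence of retinoic acid. In NRRA against RA, Mt1 fell by 1.27, Slc39a10 by 0.67 and Ftl1 by 0.36 on the log2 scale (adjusted p = 3.79e-17, 9.58e-10 and 3.36e-09). Slc30a1, Tfrc and Fth1 changed with retinoic acid in both media, and their NR values against Veh did not pass in the main fit. With retinoic acid present, restriction went with a rise of Tfrc by 0.18 and of Fth1 by 0.15 in NRRA against RA (adjusted p = 0.0068 and 0.00173), and the Tfrc rise was lost without RA replicate 1, without NRRA replicate 2 and with the trend removed, where it was 0.08. Ireb2 rose in RA against Veh in every alternative run, and in the main fit the size was near those of Tfrc and Fth1. Its NR and NRRA values depended on the trend with GC and length. Slc11a2 rose in NR against Veh and fell in NRRA against NR in every alternative run, while its RA call and the Slc40a1 calls depended on the processing or on single libraries. The closest patterns among members, as the root mean square difference of centred log2 CPM over the 8 libraries, were Slc30a1 and Fth1 (0.111), Mt1 and Mt2 (0.138) and Tfrc and Ireb2 (0.147).

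Among genes averaging 50 counts or more, the same measure found Smox, Lgals3 and Tgfb1 nearest to Mt1, at 0.0722 to 0.107. Smox encodes spermine oxidase, Lgals3 a galectin and Tgfb1 a growth factor. Nearest to Mt2 were its antisense neighbour Gm45774 (0.0157), then Apbb1ip (0.0439) and Hoxb6 (0.0792). Setdb2, Ncapg2 and Cep55 were nearest to Tfrc at 0.0409 to 0.0484. Ncapg2 encodes a condensin subunit and Cep55 a protein of the final step of cell division. Rab23, Hspbap1 and Rnf14 were nearest to Slc30a1 at 0.0230 to 0.0302. These are likenesses over 8 libraries and carry no test.

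The other zinc genes, 21 tested of 25 listed, moved in mixed directions: 4 were higher and 7 lower in NR, and 3 were higher and 7 lower in NRRA, both against Veh. Over all tested genes 21.7% were higher and 22.2% lower in NR, and 30.1% were higher and 28.7% lower in NRRA, which is the background for this and the next 5 lists. Without NRRA replicate 2 the zinc genes lower in NRRA were 3. Their medians were -0.13 and -0.11, beside 0.01 and 0.03 over all genes. Slc39a14, which encodes the zinc, iron and manganese importer ZIP14, stood at 134 and 126 CPM (Veh), 82.8 and 83.8 (RA), 195 and 191 (NR), and 101 and 94.1 (NRRA). It was highest in NR and lower than Veh in both conditions with retinoic acid, with no overlap. It rose by 0.57 on the log2 scale in NR (SE 0.0484, adjusted p = 2.52e-10) and fell by 0.42 in NRRA (SE 0.0496, adjusted p = 5.83e-08). The zinc importer Slc39a4 fell by 0.88 in NR (SE 0.145, adjusted p = 1.85e-05), and Slc30a4, which loads zinc into vesicles, by 0.48 (SE 0.0697, adjusted p = 2.48e-06). In NRRA, Slc30a2, a vesicular zinc transporter, rose by 0.66 (SE 0.108, adjusted p = 8.47e-06), and Slc39a6 and Slc39a7 fell by 0.45 and 0.43 (adjusted p = 1.08e-09 and 0.00151). The third metallothionein in the table, Mt3, named here after its values were seen, had 1 to 25 counts per library and supports no statement on its direction.

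Of the other iron genes, 23 tested of 26 listed, 4 were higher and 11 lower in NR, and 5 were higher and 12 lower in NRRA, with medians of -0.07 and -0.14. The lower ones in NR were 7 without NR replicate 2, and the higher ones in NRRA were 3 without Veh replicate 1 or NRRA replicate 1. Hmox1, heme oxygenase 1, which breaks heme down and releases its iron, stood at 357 and 337 CPM (Veh), 211 and 205 (RA), 105 and 105 (NR), and 87.6 and 86.0 (NRRA). It stepped down in that order with no overlap between conditions. Hmox1 fell by 1.73 on the log2 scale in NR (SE 0.0456, adjusted p = 5.78e-21) and by 2.00 in NRRA (SE 0.0457, adjusted p = 1.38e-22). Trf, transferrin, the carrier that Tfrc binds, stood at 90.1 and 85.3 CPM (Veh), 33.0 and 30.7 (RA), 54.4 and 54.6 (NR), and 9.25 and 9.25 (NRRA). It was lowest in NRRA by a wide margin, at -3.25 against Veh (SE 0.0698, adjusted p = 3.83e-23), a 9.48-fold fall. Its interaction was -1.09 (SE 0.0967, adjusted p = 6.1e-09), so that the effects of the 2 treatments on the log2 scale did not simply add.

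A pair of iron-linked oxidoreductases went the other way. Cp, ceruloplasmin, a copper-containing ferroxidase that works with ferroportin, stood at 30.7 and 38.1 CPM (Veh), 37.7 and 32.5 (RA), 117 and 112 (NR), and 115 and 112 (NRRA). It separated by medium, while RA overlapped Veh and NRRA overlapped NR. Cp rose by 1.74 on the log2 scale in NR (SE 0.0732, adjusted p = 1.18e-16) and by 1.73 in NRRA (SE 0.0725, adjusted p = 6.03e-17). Steap4, a metalloreductase, stood at 48.7 and 49.8 CPM (Veh), 35.7 and 29.6 (RA), 128 and 124 (NR), and 99.4 and 99.3 (NRRA). It rose by 1.35 in NR (SE 0.0620, adjusted p = 7.13e-16). The fibroblast marker sum was also higher in NR and NRRA than in Veh, and its part in these rises was not tested.

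**Figure D4:**
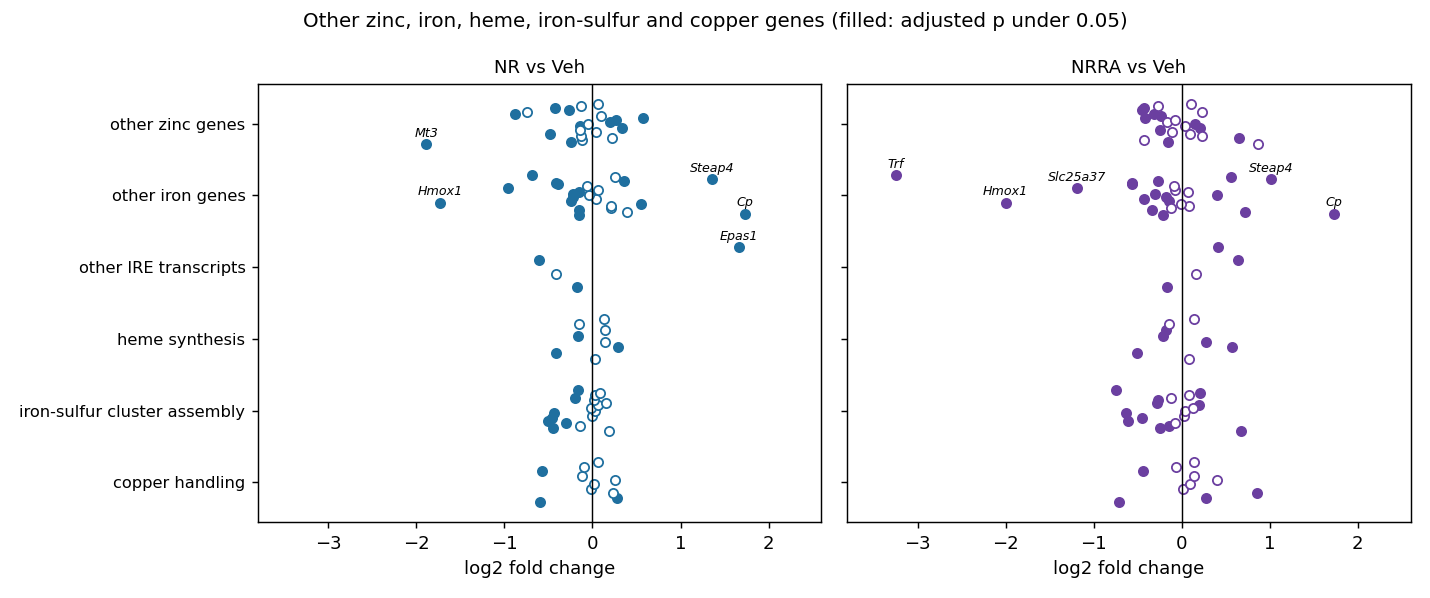
Log2 fold changes (horizontal axes) of the listed zinc, iron, IRE, heme, iron-sulfur and copper genes, 1 point per gene and 1 row per list, in NR and in NRRA against Veh, filled where the adjusted p is under 0.05 and named where the change is at least 2-fold. Hmox1 fell by 1.73 and 2.00, Trf reaches -3.25 in NRRA, and Cp lies at 1.74 and 1.73.

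A further 4 transcripts known to carry an IRE were tested, of which 1 was higher and 2 lower in NR and 2 were higher and 1 lower in NRRA. Those lower in NR were 1 with only the compared conditions and without Veh replicate 2 or NR replicate 1, and those higher in NRRA were 1 without Veh replicate 1 and with the trend removed. Epas1, a hypoxia-inducible factor, rose by 1.67 on the log2 scale in NR (SE 0.0567, adjusted p = 1.29e-18) and by 0.41 in NRRA (SE 0.0583, adjusted p = 1.16e-06). The pattern searched above was not found in Epas1 or Cdc14a. Cdc14a, a phosphatase, went from -0.60 in NR (adjusted p = 0.0237, with overlapping libraries) to 0.64 in NRRA (adjusted p = 0.00297).

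Of the 8 heme synthesis genes, 1 was higher and 2 lower in NR and 2 were higher and 3 lower in NRRA, with medians of 0.08 and -0.03. The counts in NR were unstable: those higher were 4 without Veh replicate 1, 2 without NR replicate 2 and 3 with the GC and length trend removed, and those lower were 1 with DESeq2, with no filter, with only the compared conditions and without Veh replicate 1, NR replicate 1 or NR replicate 2. Alas1, the first and rate-limiting enzyme, fell by 0.41 on the log2 scale in NR (SE 0.0546, adjusted p = 7.52e-07) and by 0.51 in NRRA (SE 0.0540, adjusted p = 7.6e-09). Of the later enzymes, which moved in both directions, Cpox rose by 0.29 in NR (adjusted p = 0.00131) and by 0.57 in NRRA (adjusted p = 4.69e-08). Fech, which inserts the iron, rose by 0.28 in NRRA (adjusted p = 0.000341).

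Iron-sulfur cluster assembly genes, 17 of 17 tested, included 7 lower and 0 higher in NR, and 8 lower and 3 higher in NRRA, with medians of -0.02 and -0.12. Their summed level ran from 1036 to 1045 CPM in Veh, from 911 to 913 in RA, from 863 to 884 in NR and from 804 to 818 in NRRA, and much of it was Hspa9, at 506 and 533 CPM (Veh), 424 and 432 (RA), 386 and 383 (NR), and 331 and 340 (NRRA). The lower genes in NR were 3 with DESeq2, 3 without Veh replicate 1 and 4 without NR replicate 1, and 1 gene was higher without Veh replicate 2 or NR replicate 2. Those lower in NRRA were 5 with DESeq2, without Veh replicate 1 and without NRRA replicate 1, and 1 was higher with DESeq2. In NR, the assembly factor Glrx5 fell by 0.46 on the log2 scale (SE 0.0594, adjusted p = 4.2e-07) and Bola3 by 0.45 (SE 0.0951, adjusted p = 0.000326). In NRRA, Nubp2, a cytosolic scaffold, fell by 0.75 (SE 0.0677, adjusted p = 4.29e-10) and the chaperone Hspa9 by 0.63 (SE 0.0395, adjusted p = 2.76e-13).

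Copper handling genes, 10 of 10 tested, gave 1 higher and 2 lower in NR and 2 higher and 2 lower in NRRA, with medians of 0.00 and 0.12. Those higher in NR were 2 without Veh replicate 1 or either NR library, and those lower were 1 without Veh replicate 2 or NR replicate 1 and 4 with the trend removed. In NRRA those higher were 4 with the trend removed, and those lower were 1 with DESeq2 and without Veh replicate 2 or NRRA replicate 1. Atox1, the chaperone that hands copper to the ATPases, fell by 0.59 on the log2 scale in NR and by 0.71 in NRRA (adjusted p = 1.14e-07 and 1.58e-09). Sco2, which delivers copper to cytochrome oxidase, fell by 0.57 and 0.44 (adjusted p = 0.00532 and 0.0162). The copper ATPase Atp7a rose by 0.28 in NR (adjusted p = 0.00162), and Atp7b rose by 0.86 in NRRA (SE 0.113, adjusted p = 3.15e-07). The copper genes that passed the test went in both directions in NR and in NRRA.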

How the data were processed

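Stranded, oligo-dT mRNA libraries were sequenced from 8 cultures. The deposited values are counts of reads per gene that the authors made, per the submitters' processing notes, with STAR 2.6.1c and featureCounts 1.6.4 on mm10; the strand and multiple-mapping settings are not given in the sources used here. The 10 members and all gene lists were chosen with earlier results of these data known. Counts were tested in edgeR 4.0.16 (R 4.3.3) by the quasi-likelihood test with TMM scaling, filterByExpr and 1 coefficient per condition over all 8 libraries, in place of the DESeq2 of the study, which was run as an alternative (1.42.0). Benjamini-Hochberg adjustment ran over 20477 genes in each of 7 contrasts, and a gene passed at an adjusted p under 0.05. Residual degrees of freedom were 4 per gene. The tests and intervals also drew on a spread shared across genes, with a median of 25.04 total degrees of freedom. Standard errors thus rest only in part on the 2 libraries per condition of the gene itself. The p-values measure the spread between these cultures only. SE is the log2 fold change over the square root of F. Totals of 19261333 to 30023585 reads set the counting precision. The named genes were all members, up to 3 genes per list with the largest change among those past the test with a mean of at least 50 counts in NR and in NRRA against Veh, and the 3 genes nearest in pattern to Mt1, Mt2, Tfrc and Slc30a1; some genes that this rule names are not reported here. Of 55421 gene IDs, 55154 were matched to GENCODE M21 for coordinates, exon lengths and GC content, and motifs were searched in Python 3.11.15. The fitting was tested on simulated data. Alternatives were DESeq2 size factors, DESeq2, no filter, only the compared conditions, each library left out, a replicate block, pseudogene counts added and, chosen after the data were seen, the GC and length trend removed.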

Additional observations from a re-analysis of the deposited data

Results flagged for a closer look

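For 5 members the retinoic acid effect in restricted medium differed from that in complete medium in edgeR's quasi-likelihood test of the interaction on the log2 scale. The difference was -0.56 for Mt1, -0.72 for Mt2, -0.29 for Slc39a10, 0.15 for Fth1 and -0.36 for Ireb2. For Mt1 the 2 effects were 0.07 in complete and -0.50 in restricted medium, and for Mt2 they were 0.38 and -0.34. Slc39a10 went from 0.21 to -0.08, Fth1 from -0.60 to -0.45 and Ireb2 from 0.62 to 0.26. The values of Mt1 and Mt2 passed the test in every alternative run, with adjusted p of at most 0.000203 and 1.02e-06. The other 3 did not pass in every alternative. Groups of 2 libraries are too small for a test of single outlying libraries.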

How the results depend on the processing

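With 2 libraries per condition, the precision rested on both the counting depth and the spread between libraries. Counting error weighed most on Slc40a1, the least abundant member, with a mean of 320.5 counts per library. The falls of Mt1 and Mt2 in NR and NRRA against Veh and their interactions kept direction and passed the test in every alternative run for them. With GC and length trends removed, the members higher in NR against Veh were 1 and lower 7, those higher in NRRA against Veh were 1, those lower at 2-fold were 1, those higher in NRRA against RA were 1 and those with a higher interaction were 2. Under it direction changed for Tfrc (-0.15), Fth1 (0.0136) and Ireb2 (-0.11) in NR against Veh, and for Slc40a1 in RA against Veh (-0.13), NRRA against NR (-0.0459) and the interaction (0.0828); none but Ireb2 passed the test in the main fit. With DESeq2 size factors and with DESeq2 the members with a higher interaction were 0. The cause was not tested. The value of Fth1 in NR against Veh, near 0, turned to 0.0014 with no filter and 0.0018 with only the compared conditions, and that of Slc30a1 in NRRA against RA to 0.0083 with no filter. No member changed side or direction when pseudogene counts were added.

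Leaving out 1 library at a time, the members higher in NR against Veh were 1 without Veh replicate 1, and otherwise up to 4 (4 without Veh replicate 2), those higher in NRRA against RA were 1 without NRRA replicate 2, and otherwise up to 3, and those with a higher interaction were 0 to 1, with 0 in 6 of the 8 fits, where Fth1 was lost. Those with a lower interaction were 2 without RA replicate 2 and up to 4 otherwise. Over these fits Fth1 in NR against Veh ranged from -0.0157 to 0.0353, positive without Veh replicate 1 or NR replicate 2, and Slc30a1 in NRRA against RA from -0.0301 to 0.0134, positive without RA replicate 2 or NRRA replicate 2. The interaction of Tfrc ranged from -0.0532 (without Veh replicate 2) to 0.133, and that of Slc40a1 from -0.152 to 0.0133 (without RA replicate 1). These are values that had not passed the test with all libraries. A lone library was assumed to vary like the other conditions.

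The replicate numbers did not pair the libraries: deviations of same-numbered libraries correlated at -0.07 to 0.08 over 14806 genes. With a replicate block the members higher and lower were 3 and 4 in NR, 4 and 4 in RA, and 3 and 6 in NRRA against Veh, and 1 and 4 for the interaction, as without the block.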
